A study of Homo sapiens with 4 samples.

Results

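The neuron navigators NAV1, NAV2 and NAV3 were examined in the 4 lines of a cystatin D study. The parent of these lines is HCT116, a widely used line of human colon carcinoma cells. The genes were taken by their Ensembl identifiers, ENSG00000134369 for NAV1, ENSG00000166833 for NAV2 and ENSG00000067798 for NAV3, and all 3 were found among the 24916 rows of the deposited table. NAV3 had been picked for its low values in both CST5 lines, so its values in that comparison are a description without a test. NAV1 and NAV2 were taken as its relatives. The CST5 lines were CST5 clone 9 and CST5 clone 20, HCT116 cells that stably express a CST5 transgene, which encodes cystatin D, an inhibitor of cysteine proteases. The controls were mock-transfected and un-transfected HCT116 cells. Each line was measured on 1 Affymetrix array from 100 ng of total RNA, which gave 2 arrays per group. The CST5 lines are clones, so an effect of the transgene and a trait of the cell from which a clone grew cannot be told apart. The labels do not say if the mock-transfected cells were cloned or pooled.

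The neuron navigators are large cytoplasmic proteins related to UNC-53 of Caenorhabditis elegans, which is needed for the extension of axons, excretory canals and migrating cells along the body axis. Mammalian navigators track the growing plus ends of microtubules through end-binding proteins and carry an AAA-type ATPase domain near the carboxyl terminus. NAV1 acts in the neuronal growth cone. NAV2 was described as a gene induced by retinoic acid in neuroblastoma cells. NAV3 is strongly expressed in brain, and deletions of its locus have been described in cutaneous T-cell lymphoma and in epithelial cancers.

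All 3 genes lie on different chromosomes in GRCh38.p14. RefSeq places NAV3 on chromosome 12 (77571862 to 78213010, 641 kb), NAV1 on chromosome 1 (201539127 to 201826969, 288 kb) and NAV2 on chromosome 11 (19345236 to 20121601, 776 kb). For these symbols the RefSeq start-site table holds 7 windows, each running from 250 bases before an annotated start to 50 bases after it. The windows below show the sequence around both listed NAV3 starts and, for comparison, around the first listed start of NAV1 and of NAV2. All are on the plus strand and written 5′ to 3′, with CpG dinucleotides in capitals.
NAV3, chr12:77830644-77830943: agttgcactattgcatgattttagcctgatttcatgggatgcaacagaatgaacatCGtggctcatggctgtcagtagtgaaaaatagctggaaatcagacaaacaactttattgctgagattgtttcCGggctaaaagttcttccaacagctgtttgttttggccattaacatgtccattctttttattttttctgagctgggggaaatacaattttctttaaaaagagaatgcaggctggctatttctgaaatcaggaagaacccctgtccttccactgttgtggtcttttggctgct
NAV3, chr12:78036364-78036663: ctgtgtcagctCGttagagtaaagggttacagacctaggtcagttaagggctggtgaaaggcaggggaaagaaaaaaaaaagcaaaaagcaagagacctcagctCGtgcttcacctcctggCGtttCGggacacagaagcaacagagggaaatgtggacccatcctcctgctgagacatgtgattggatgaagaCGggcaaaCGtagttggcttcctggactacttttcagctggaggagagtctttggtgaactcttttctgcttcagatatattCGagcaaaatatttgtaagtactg
NAV1, chr1:201648416-201648715: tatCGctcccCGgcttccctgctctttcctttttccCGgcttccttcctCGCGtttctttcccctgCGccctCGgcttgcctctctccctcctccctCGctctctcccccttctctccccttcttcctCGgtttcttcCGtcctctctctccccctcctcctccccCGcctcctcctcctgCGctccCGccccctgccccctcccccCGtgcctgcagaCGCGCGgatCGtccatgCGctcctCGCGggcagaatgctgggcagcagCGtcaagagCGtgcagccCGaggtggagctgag
NAV2, chr11:19344986-19345285: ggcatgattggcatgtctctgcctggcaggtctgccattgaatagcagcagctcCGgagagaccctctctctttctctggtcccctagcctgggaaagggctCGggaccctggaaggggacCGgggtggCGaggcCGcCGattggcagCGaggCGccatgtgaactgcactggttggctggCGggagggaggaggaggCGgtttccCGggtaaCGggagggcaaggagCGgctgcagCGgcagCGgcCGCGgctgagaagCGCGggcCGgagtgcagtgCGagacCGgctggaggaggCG

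The capitals are sparse in the NAV3 windows and dense in the other printed windows. The NAV3 windows held 2 and 7 CpG dinucleotides, with a GC content of 40% and 46.7%. Over all 35116 windows of the table the median was 14 CpG dinucleotides, 18.2% of windows held 2 or fewer and 39.3% held 7 or fewer. The NAV1 windows held 24 and 21 CpG dinucleotides. The NAV2 windows held 23, 37 and 5, so the NAV2 start farthest downstream was also poor in CpG. The first listed NAV3 start, at 77830894, lies inside the gene, whose RefSeq span begins at 77571862. The first listed NAV1 start, at 201648666, also lies inside its gene, which begins at 201539127. No window covers the beginning of the NAV3 or NAV1 gene, whereas the first NAV2 window lies at the beginning of its gene. The deposited table has a single value per gene, and which start is used in these lines was not analysed here.

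**Figure D1:**
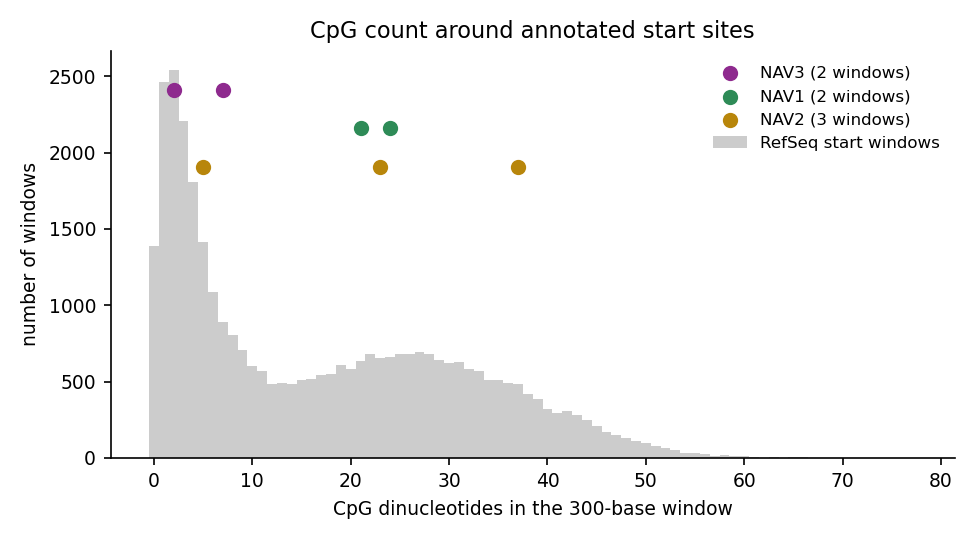
Number of CpG dinucleotides in 300-base windows around annotated start sites. Grey bars count all 35116 RefSeq windows by their CpG number, and the height of the coloured points has no meaning. No window covers the beginning of the NAV3 or NAV1 gene. The NAV3 windows, at 2 and 7, lie in the CpG-poor part of the distribution with the NAV2 window at 5, and the other NAV1 and NAV2 windows lie between 21 and 37.

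Short motifs were searched on both strands of the same windows. The general E-box CANNTG, bound by basic helix-loop-helix and zinc-finger factors, occurred at 1 place in the first NAV3 window and at 2 in the second. It also occurred at 1 place each in the second NAV1 window and the first NAV2 window, and 68.7% of all windows hold it. The form CAGGTG, which is contained in CANNTG and is bound by SNAI and ZEB repressors, was not in any navigator window and is in 20.6% of all windows. The letters TATAAA (11.5% of all windows) and the AP-1 motif TGANTCA (7.71%) were in none of them either. CCAAT occurred once in the second NAV3 window and at 2 places in each of the first and second NAV2 windows, against 34.6% of all windows with a match. These matches describe the letters of the windows, and no binding, methylation or other DNA measurement was available beside them.

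NAV3 was low in both CST5 clones and high in both controls. Its deposited value, read as log2, was 3.41 in clone 9 and 3.48 in clone 20, against 6.07 in un-transfected cells and 6.15 in mock-transfected cells. The groups were far from overlapping, and the lines within each group were close: the clones were 0.07 apart and the controls 0.08. The mean was 3.45 ± 0.05 (SD, n = 2) in the clones and 6.11 ± 0.06 (SD, n = 2) in the controls, a log2 difference of -2.66, or 6.34-fold lower in the clones. The smallest of the 4 clone-to-control differences was 2.59 in size on the log2 scale, far beyond the distances within a group. Fewer cells that express NAV3 and less NAV3 RNA per cell cannot be told apart in RNA from whole cultures.

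**Figure D2:**
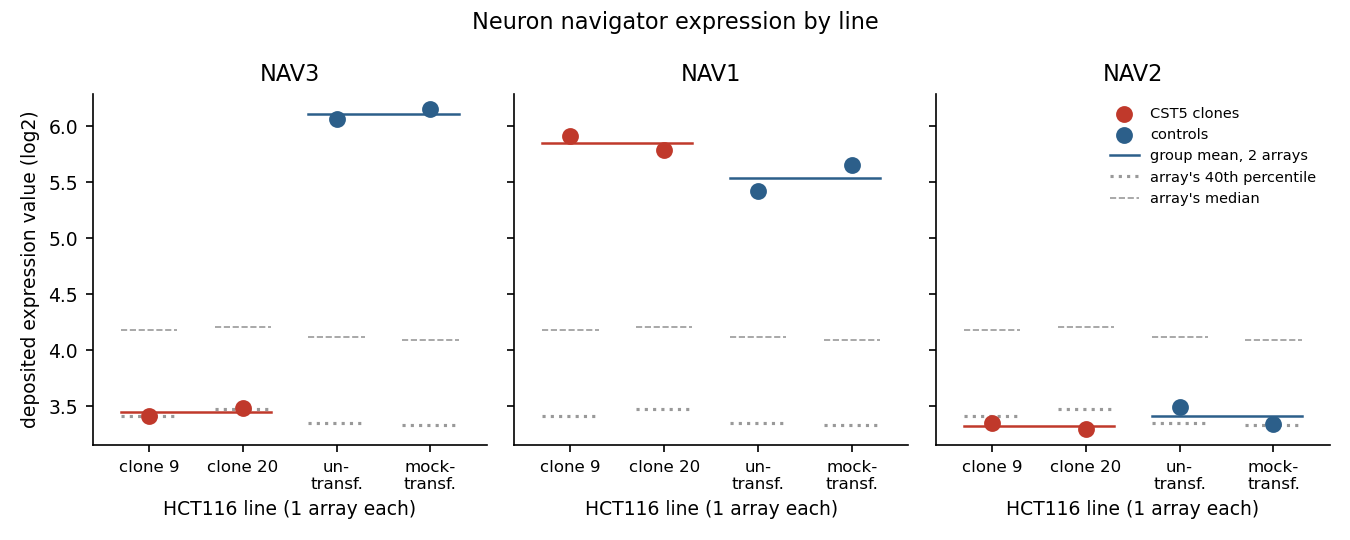
Deposited expression values (log2) of NAV3, NAV1 and NAV2 in each line, with the CST5 clones in red and the controls in blue. Coloured lines are group means of 2 arrays, and grey marks give each array's own 40th percentile and median. NAV3 lies at the 40th percentile in the clones, at 3.41 and 3.48, and above 6 in the controls, NAV1 lies between 5.42 and 5.91, and NAV2 lies near the 40th percentile on every array.

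The place of NAV3 among all rows of an array differed in the same way. In clones 9 and 20 its value exceeded that of 40% and 40.1% of the rows, against 73.9% in un-transfected cells and 75.1% in mock-transfected cells. A place in the array shows how bright the probes of a gene were and is not a measure of transcripts per cell. The 40th percentile of an array was also the limit below which a value counted as dim here. NAV3 exceeded that limit by 0.0009 in clone 9 and by 0.005 in clone 20, so its clone values lie on the limit itself. Detection calls and background were not used here. Where the clone values are background, the fold of 6.34 understates the change, and whether any NAV3 RNA remained in the clones was not tested.

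Every clone-to-control pair gave nearly the same size for NAV3. Clone 9 was lower than un-transfected cells by 6.31-fold and lower than mock-transfected cells by 6.69-fold. Clone 20 was lower than un-transfected cells by 6.01-fold and lower than mock-transfected cells by 6.37-fold. These 4 values share arrays and are not independent of each other. NAV3 held rank 5 from the lowest among the 15131 rows above the dim limit in clone 9 against un-transfected cells, rank 4 against mock-transfected cells, rank 2 in clone 20 against un-transfected cells and rank 1 against mock-transfected cells. A 4-fold lower value was found in 0.0925% of these rows for clone 9 against un-transfected cells, 0.0595% for clone 9 against mock-transfected cells, 0.0529% for clone 20 against un-transfected cells and 0.033% for clone 20 against mock-transfected cells. By the mean of both clones minus the mean of both controls, NAV3 was rank 2 from the lowest. It was 1 of 8 rows (0.0529% of those tested) that were at least 2-fold lower in all 4 differences, and since it was picked on this contrast nothing further is read from these ranks.

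The lines within a group gave no difference in NAV3 that stood out from other genes. Clone 9 minus clone 20 was -0.07, and 75.8% of the tested rows differed at least as much between the clones. Both clone values lie on the limit for dim values, where a common floor could also bring them close, and this was not tested. Mock-transfected minus un-transfected cells was 0.08, and 61.5% of the tested rows differed at least as much between the controls. Each of these rests on 1 array per line and has no replicate check.

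**Figure D3:**
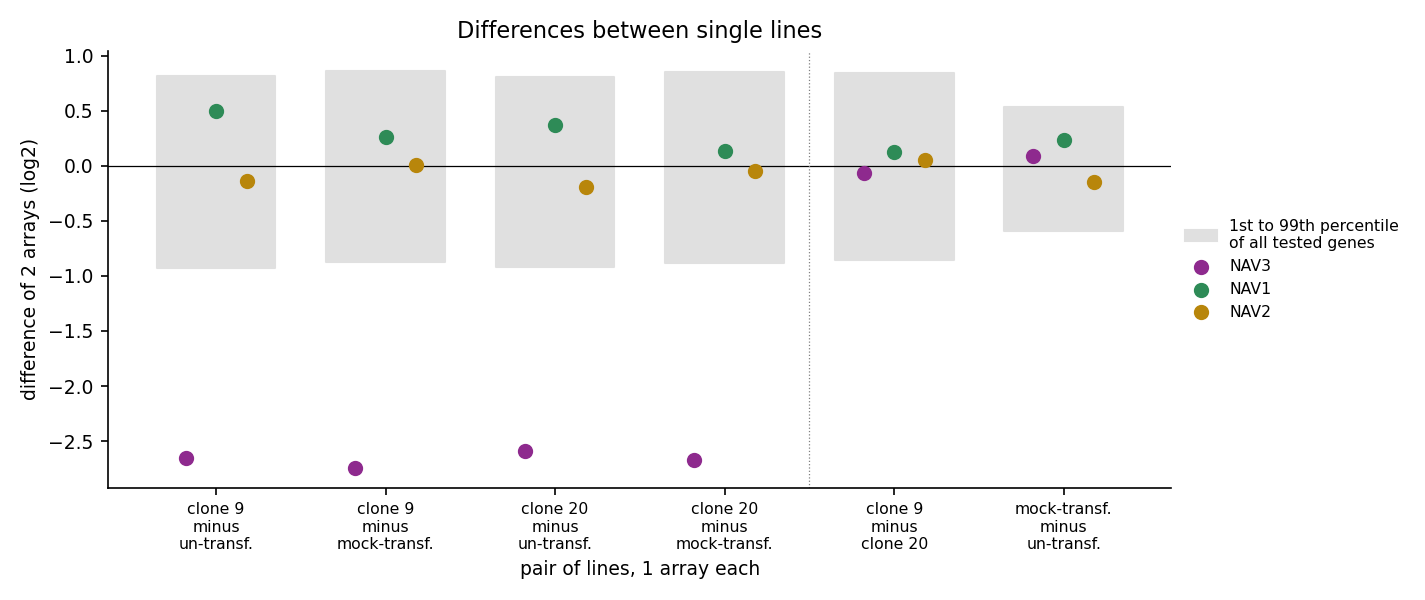
Log2 difference between single arrays for NAV3, NAV1 and NAV2, with the CST5 clone first in the 4 pairs left of the dotted line. Grey boxes span the 1st to the 99th percentile of the 15131 tested rows in that pair. NAV3 lies between -2.74 and -2.59 in every clone-to-control pair and near 0 between clones and between controls, and NAV1 and NAV2 stay inside the grey boxes.

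NAV1 did not share the low values of NAV3. It had 5.91 in clone 9 and 5.79 in clone 20, against 5.42 in un-transfected cells and 5.65 in mock-transfected cells, on the log2 scale. Both clones were above both controls, though the distance of 0.14 between clone 20 and mock-transfected cells was smaller than the 0.23 between the controls. The mean was 5.85 ± 0.09 (SD, n = 2) in the clones and 5.54 ± 0.17 (SD, n = 2) in the controls. The clones exceeded the controls by 0.31 ± 0.13 (SE, log2 scale; 1.24-fold, 95% interval -0.01 to 0.64), a difference that did not pass the test (limma, adjusted p = 0.378). An exact two-sided permutation test gave p = 0.333, the smallest value that 2 arrays against 2 allow. The difference was 0.20 when un-transfected cells were left out.

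Groups that do not overlap were common in these data. All 4 clone-to-control differences were above 0 in 23.3% of the tested rows and below 0 in 25.1%, so the order of the NAV1 values is not unusual. A difference as high as that of NAV1 or higher was found in 8.68% of the tested rows. One at least as large in either direction was found in 17.7%. Among the 1643 rows within 0.25 of the mean level of NAV1 the median difference was -0.01, and the 10th and 90th percentiles were -0.32 and 0.28. The NAV1 value of 0.31 lay just above that 90th percentile. Between single lines, NAV1 was higher in clone 9 than in un-transfected cells by 1.41-fold and higher in clone 20 than in mock-transfected cells by 1.10-fold, the ends of the range over the 4 pairs.

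NAV2 read close to the limit for dim values in every line, and the clones were not separated from the controls. Its log2 value was 3.35 in clone 9 and 3.30 in clone 20, against 3.49 in un-transfected cells and 3.35 in mock-transfected cells. Clone 9 read 0.007 above mock-transfected cells, so the groups overlapped, while the other 3 differences were below 0. The mean was 3.33 ± 0.04 (SD, n = 2) in the clones and 3.42 ± 0.10 (SD, n = 2) in the controls. Clones minus controls was -0.09 ± 0.11 (SE, log2 scale; 95% interval -0.37 to 0.19), which did not pass the test (limma, adjusted p = 0.723, and 0.750 over all 24916 rows without the limit on dim values). The exact two-sided permutation test gave p = 0.667.

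NAV2 passed the limit on dim values only through the controls, by 0.14 in un-transfected cells and 0.01 in mock-transfected cells, and lay below it in both clones, so its entry into the tested rows was not independent of its difference. Rows at the level of NAV2 read slightly higher in the clones as a whole: the 984 rows within 0.25 of its mean level had a median difference of 0.12, and the part of this in the NAV2 value was not tested. The scaling of the arrays moved the NAV2 difference to -0.18 after centring each array on its median, -0.19 after quantile normalization and -0.20 after cyclic loess, with no call in any of them (limma, adjusted p = 0.451 to 0.554).

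**Figure D4:**
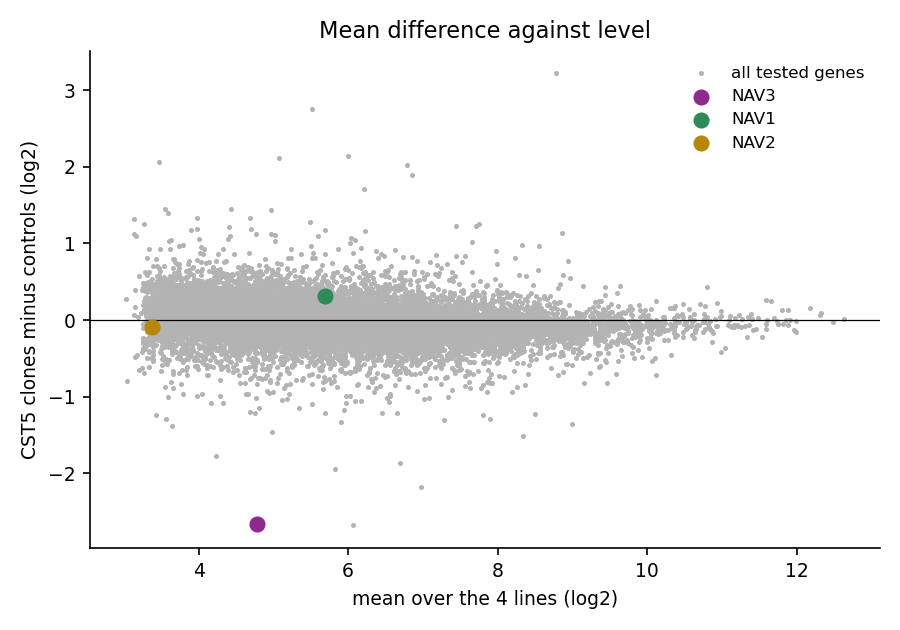
Mean log2 difference of the CST5 clones minus the controls against the mean level over the 4 lines, for all 15131 tested rows in grey. NAV3 lies at -2.66, far below the 1st percentile of these rows at -0.70. NAV1 at 0.31 and NAV2 at -0.09 lie within the cloud.

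Across the family, the differences from the controls therefore had unlike sizes: -2.66 for NAV3, -0.09 for NAV2 and 0.31 for NAV1. NAV2 already read close to the limit for dim values in both controls, so a fall as large as that of NAV3 could hardly show in it. NAV3 was selected for its difference, and a test between the members was not made for that reason. Over all tested rows the median difference was -0.006, with a 1st percentile of -0.70 and a 99th percentile of 0.65. At an adjusted p under 0.05 limma called 2 of the 15131 rows (0.0132%). NAV3 was 1 of them, which its selection makes no support, and NAV1 and NAV2 were not.

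The rows whose profile over the 4 lines was most like that of NAV3 were found by the Euclidean distance between log2 profiles, each centred on its own mean. ENSG00000163032 was nearest, at a distance of 0.68. Clone 9 read 6.11 and clone 20 read 5.68 for it, against 7.80 in un-transfected cells and 8.33 in mock-transfected cells. ENSG00000038427 followed at 0.87, with 5.81 in clone 9 and 5.71 in clone 20, against 7.83 in un-transfected cells and 7.43 in mock-transfected cells. Both read lower in the clones than in the controls. Unlike NAV3, their clone values still lay above the array medians of 4.18 (clone 9) and 4.21 (clone 20). Their differences, -2.17 and -1.87, were smaller in size than that of NAV3, and their lines differed more within a group. The median distance of the other tested rows was 2.67, about the 2.67 that a profile without any difference would have. With 4 arrays, such a likeness mainly finds rows with much lower values in both clones.

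The other genes of the microtubule plus end, the tubulins and the guidance receptors were not counted, because 0 of the 24916 identifiers could be paired with a symbol in the reference table used here. For the same reason CST5 itself and the markers of colon epithelium were not analysed here, and the lines go by their labels. A label field of all samples speaks of clinical samples, whereas every other label gives the HCT116 cell line.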

How the data were processed

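Affymetrix arrays were hybridised with biotin-labelled RNA, amplified from 100 ng of total RNA of each line, per the labels' protocols. The authors deposited 1 value per Ensembl gene identifier and array, taken as log2 expression since the values run from 1.03 to 12.7. The sources used here do not name the log base, array model, background correction, summarisation or normalization. No coordinates come with the values.

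The navigator genes, the gene lists and the tests were chosen with earlier results of these data known. A row was tested if it exceeded its array's 40th percentile on at least 2 arrays, which kept 15131 rows and removed 9785. CST5 clones were compared with controls by limma 3.58.1 in R 4.3.3 (lmFit, eBayes, 2 residual and 3.26 prior degrees of freedom). P-values were adjusted by Benjamini and Hochberg's method across every tested row, with a threshold of 0.05. They reflect the spread among these lines alone, which may be technical, and 4 arrays limit their precision. The test was checked on simulated data. These had spreads drawn from the limma fit itself and independent arrays, so they do not cover traits of single clones. The named genes were the 3 members and the 2 unnamed rows nearest to NAV3 in profile. Planned counts over 4 gene lists and 5 marker lists were not run for lack of symbols. Start-site windows come from RefSeq, GRCh38.p14, matched by symbol for 3 of 3 genes. Alternatives were median centring, quantile normalization, cyclic loess, no filter, a filter at the 60th percentile, a trended or robust prior, and leaving out each array. Figures were drawn with matplotlib 3.10.9.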

Additional observations from a re-analysis of the deposited data

How the results depend on the processing

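NAV3 kept its direction under each other scaling and without each array. All 4 of its clone-to-control differences were below 0, so leaving out an array could not reverse it. NAV3 was picked for this difference, so these values are a description. Its log2 difference of -2.66 was -2.75 after centring each array on its median and -2.73 after cyclic loess. Centring moved the median of all tested rows to -0.09. Without each array in turn it ranged from -2.71 to -2.62. NAV1 stayed positive, between 0.20 and 0.43 with an array left out and between 0.23 and 0.33 otherwise, and did not pass the threshold in any (limma, adjusted p from 0.333 to 0.894). NAV2 stayed negative, between -0.20 and -0.09 with all arrays and between -0.16 and -0.02 with an array left out, also without a call (limma, adjusted p from 0.451 to 0.978), and the filter at the 60th percentile removed it. The count of 2 rows past limma's adjusted threshold was 0 without any single array, with 784 to 2743 rows at an unadjusted p under 0.05. Leaving out an array leaves a group with a lone array whose spread is taken from the other group. No paired analysis was possible because the labels number no replicates and tie neither clone to a control. The list counts were not run. Signal over background is unknown, which limits what can be said of NAV2 and of NAV3 in the clones.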
